A study of Mus musculus with 17 samples.

Results

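Atrasentan, a blocker of the endothelin A receptor, was compared with saline in glomeruli-enriched kidney cortex of obese, diabetic BTBR ob/ob mice. The comparison took the 7 libraries labelled as ob/ob with atrasentan and the 5 labelled as ob/ob with saline, 12 of the 17 libraries of the series. All 12 mice carried the ob allele of Lep, the leptin gene, on the BTBR background. Treatment in the drinking water, for atrasentan at 5 mg/kg body weight per day, began at 18 weeks of age and lasted 6 weeks, to 24 weeks of age. The other 5 libraries came from wild type BTBR mice of the same age, with no treatment label, and they are used here only to show a level outside the ob/ob genotype. RNA was selected for poly(A) tails and counted per gene. The atrasentan mice have the genotype label 'BTBR ob' and the saline mice 'ob/ob-d30', with the meaning of d30 not given in the sources used here. Lep itself had 0 reads in 11 of these 12 libraries and 1 read in the other, and wild type libraries had 0 as well, so its reads check no label.

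Endothelin-1 is a vasoconstrictor peptide that endothelial and epithelial cells of the kidney release. It acts through 2 receptors. The A receptor, Ednra, sits on smooth muscle, mesangial cells and podocytes and mediates constriction, contraction of the mesangium and matrix production, and the B receptor, Ednrb, sits mainly on endothelium and tubule, where it drives nitric oxide release, salt excretion and clearance of the peptide. In diabetic kidney disease blockade of the A receptor is known to lower albumin loss.

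Podocyte, glomerular endothelial and mesangial genes were present in all 12 libraries. Nphs1, which encodes nephrin of the podocyte slit diaphragm, is an example. It had 24.4 to 63.1 CPM (reads of a gene scaled to a common library size) with atrasentan and 60.3 to 120 CPM with saline. Tubule genes were present too, so the samples are mixed cortex. Their enrichment for glomeruli rests on the label, with no unenriched cortex to compare. In such bulk samples fewer cells of a type and less RNA per cell cannot be told apart. Gene reads per library ran from 35938445 to 52528747 over the 12 libraries, with the highest in an atrasentan library. The atrasentan libraries held fewer detected genes and less noncoding signal. Genes with a read numbered 21396 to 23081 with atrasentan and 24335 to 25313 with saline (exact permutation p = 0.00126, adjusted p = 0.00442 over 7 measures). The mitochondrially encoded share of gene reads was 0.324% to 0.858% against 0.612% to 1.4% (exact permutation p = 0.0328, adjusted p = 0.0574). Reads outside annotated genes made up 3.17% to 5.65% of all reads with atrasentan and 5.95% to 8.17% with saline, and long noncoding RNA, unproven loci of the class TEC included, made up 0.487% to 0.793% against 0.784% to 0.963% of gene reads (mean 0.627% ± 0.119 against 0.905% ± 0.0715, exact permutation p = 0.00379, adjusted p = 0.00884 over 7 measures). Atrasentan libraries 2, 3, 5 and 7 also had more reads that aligned to several places (28.3% to 31.8%) than atrasentan libraries 1, 4 and 6 (23.9% to 24.6%) and saline libraries (24.5% to 25.5%), and the library numbers of these subsets do not interleave in the labels. Library numbers run by group as well, so the order in which libraries were made and the treatment cannot be told apart.

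**Figure D1:**
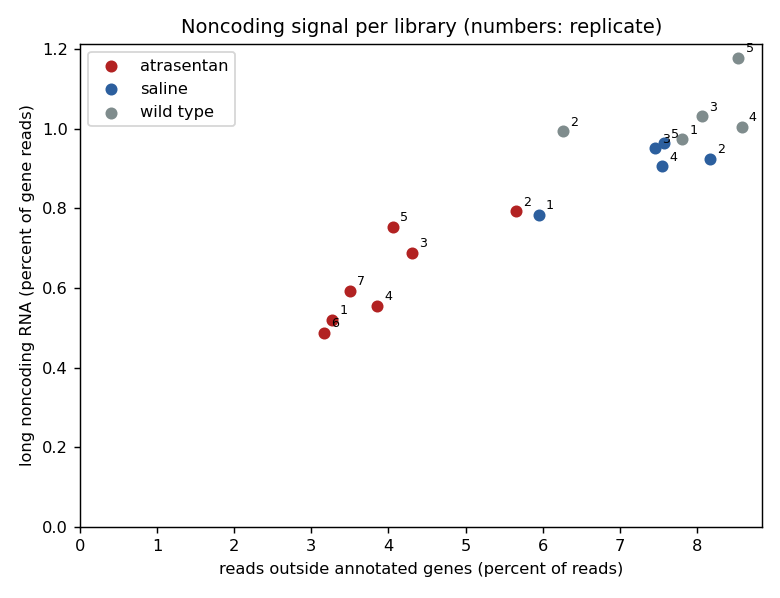
Each point is 1 of the 17 libraries, with the replicate number beside it. The x axis is the share of all reads that fell outside annotated genes, the y axis the share of gene reads on long noncoding genes, both in percent. The 7 atrasentan libraries lie between 3.17% and 5.65% on the x axis, all below the 5 saline libraries, which start at 5.95%.

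Of 17766 genes tested with edgeR's quasi-likelihood test, 6001 (33.8%) were called changed at a Benjamini-Hochberg adjusted p under 0.05. With atrasentan 2713 genes (15.3%) were higher and 3288 (18.5%) lower. Larger changes were mostly falls: 2213 called genes (12.5%) were at least 2-fold lower and 357 (2.01%) at least 2-fold higher. All 7 atrasentan libraries lay above all 5 saline libraries for 1079 genes (6.07%) and below them for 1023 (5.76%). The median log2 fold change over all genes was -0.005. These shares are the background for every list below. They depend on the level of a gene, as given below, and the lists were not compared with genes of their own level.

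The groups also differed in their proximal tubule content. The mean log2 CPM of 25 proximal tubule markers was 2.73 to 5.89 with atrasentan and 5.88 to 8.06 with saline, so it nearly separates the groups. With that mean as a covariate (called the proximal tubule covariate below) 38 genes were called, 11 higher and 27 lower, of which 35 were called in the same direction without it (9 higher and 26 lower), and no gene list had more than 1 call. Saline libraries 1 and 3 held the most proximal tubule RNA, and without them 2577 genes were called. Atrasentan and tubule content can therefore not be fully told apart for most of the changes below, and the fold changes are differences between these tissue samples.

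**Figure D2:**
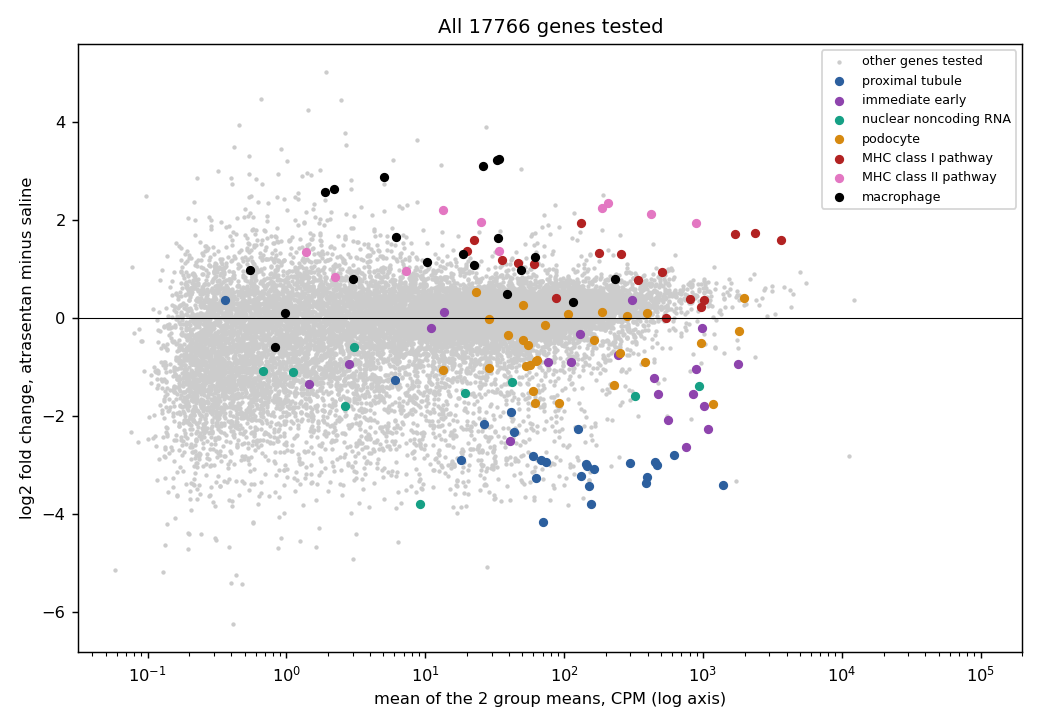
Each grey point is a gene tested. The x axis is the mean of the atrasentan and saline means in CPM on a log axis, and the y axis is the log2 fold change, atrasentan minus saline. Coloured points are members of 7 gene lists. Proximal tubule genes (blue) have a median of -2.97, and the genes of both MHC pathways and of macrophages sit mostly above 0.

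The protein-coding genes with the largest separated falls were led by Cyp24a1, the enzyme that inactivates vitamin D, on chromosome 2. It was at 36.6, 115, 20.0, 21 and 78.6 CPM in saline libraries 1 to 5. With atrasentan its lowest, median and highest values were 0.640, 1.36 and 3.62 CPM, and wild type mice had 2.27 to 13.0 CPM. It fell by 5.09 ± 0.56 on the log2 scale (SE, adjusted p = 7.13e-05), and by 5.02 ± 0.95 with the proximal tubule covariate (adjusted p = 0.0421). Saline libraries 2 and 5 held the most Cyp24a1, and saline libraries 1 and 3 the most proximal tubule RNA. The order of 5 libraries cannot decide the part of tubule content in the fall. The covariate nearly separates the groups, so its fit cannot fully decide that part either.

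The other 9 of these 10 genes fell by 3.88 to 4.92. They include 3 carriers of the proximal tubule, namely Slc5a12 for lactate, Slc34a3 for phosphate and Slc22a29 of the organic ion family, with Pik3c2g, a lipid kinase. Ttr, the carrier of thyroid hormone and retinol, was at 22.7, 4.0, 21.5, 2.31 and 10.7 CPM with saline and at 0.20 to 1.22 CPM with atrasentan. Fam163a and Olfm3 were at 0.529 to 10.2 CPM with saline and under 1 CPM with atrasentan. For each of the 9, saline libraries 1, 3 and 5 held more than saline libraries 2 and 4.

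The 10 largest separated rises included all 3 chains of the complement protein C1q. The largest of the 10 rises was that of Ms4a4d, a member of the CD20-like membrane family. Ms4a4d was at 0.0788, 0.140, 0.0284, 0.0241 and 0.286 CPM with saline and had a lowest, median and highest value of 0.785, 2.73 and 7.76 CPM with atrasentan, a rise of 5.03 ± 0.82 on the log2 scale (adjusted p = 0.000398). The next were Serpina3f (3.90), a serine protease inhibitor of a family with near-identical copies, H2-M2 (3.78), C1qb (3.25), C1qc (3.23), C1qa (3.11), Apol11b (2.96), Aif1 (2.87), Saa3 (2.73) and Gbp8 (2.73). Saa3, an acute phase protein, was at 4.90 CPM in atrasentan library 3 and at no more than 0.826 CPM in any other treated library, and without library 3 it lost its call (1.64, adjusted p = 0.0503).

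The drug's target was slightly higher in treated mice. Ednra, on the minus strand of chromosome 8, 77663031 to 77724464 of GRCm38, was at 33.5, 32.6, 34.2, 40.8 and 29.5 CPM with saline, and at 69.1, 52.7, 62.4, 81.5, 25.3, 73.3 and 49.6 CPM in atrasentan libraries 1 to 7. It rose by 0.79 ± 0.22 on the log2 scale (adjusted p = 0.0110). Of the treated libraries 6 of 7 lay above every saline library, and library 5 lay below all of them. The mesangial markers Pdgfrb and Des rose by 0.79 and 0.76, and library 5 was their lowest treated library too. The part of tissue composition in the rise of Ednra was not tested. The converting enzyme Ece1, which releases endothelin-1 from its precursor, rose by 0.49 ± 0.15 (adjusted p = 0.0162; 813 ± 146 against 578 ± 104 CPM, mean ± SD). The neutral endopeptidase Mme, which degrades endothelin and natriuretic peptides, fell by 1.5 ± 0.28 (adjusted p = 0.000900, 15.9 ± 6.82 against 45.0 ± 12.6 CPM). The part of tissue composition in the fall of Mme was not tested. Edn1 did not pass (log2 fold change 0.36 ± 0.15, adjusted p = 0.0712) except without saline library 2 (0.49, adjusted p = 0.0166), nor did Ednrb (0.08 ± 0.33, adjusted p = 0.878), whose saline values spread from 89.1 to 449 CPM. Clu, which encodes the secreted chaperone clusterin of the series' title, was at 186 ± 51.9 against 274 ± 109 CPM and did not pass (-0.56 ± 0.23, adjusted p = 0.0676). Clu passed without atrasentan library 6, saline library 2 or saline library 4 (-0.65 to -0.69, adjusted p between 0.0307 and 0.0359).

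Receptors for other vasoactive signals were among the separated rises. Agtr1a, the angiotensin II type 1 receptor of mesangium and vessels, was at 356, 387, 375, 370 and 387 CPM with saline and had a lowest, median and highest value of 445, 684 and 886 CPM with atrasentan. It rose by 0.87 ± 0.14 (adjusted p = 0.000328), and no treated library reached down to the saline range. Agtr1a is also on the list of mesangial markers below, which had a median of 0.72. Gucy1a1, a subunit of the nitric oxide receptor guanylate cyclase, rose by 0.77 ± 0.16, and the natriuretic peptide clearance receptor Npr3 rose by 0.74 ± 0.15. In the prostaglandin list Ptger4, a receptor for prostaglandin E2, rose by 0.78 ± 0.17 and the prostacyclin synthase Ptgis by 0.81 ± 0.18 (adjusted p of at most 0.00299 for all 4). Of 12 genes of the nitric oxide and cGMP list 5 rose (3 without saline library 1) and Nos1, the neuronal nitric oxide synthase, fell. Of 12 prostaglandin genes 4 rose and 3 fell, and the falls were Ptgs2, Ptges and Ptger3.

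Of 9 renin-angiotensin genes tested, Agtr1a rose and 4 fell. The falls included Mas1, the receptor for angiotensin 1-7, Agt, the precursor angiotensinogen, from 31.0 ± 25.2 to 6.47 ± 5.00 CPM, and Enpep, which cleaves angiotensin II, from 331 ± 154 to 79.1 ± 55.9 CPM. Agt was highest in saline libraries 1 and 3 (66.2 and 47.1 CPM), the libraries with the most proximal tubule RNA. Enpep was at 169, 123 and 110 CPM in atrasentan libraries 1, 4 and 6 and at 19.3 to 58.5 CPM in libraries 2, 3, 5 and 7. The part of tissue composition in the fall of Enpep was not tested. Ren1, made by the juxtaglomerular cells, did not pass (-0.24 ± 0.31, adjusted p = 0.585).

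**Figure D3:**
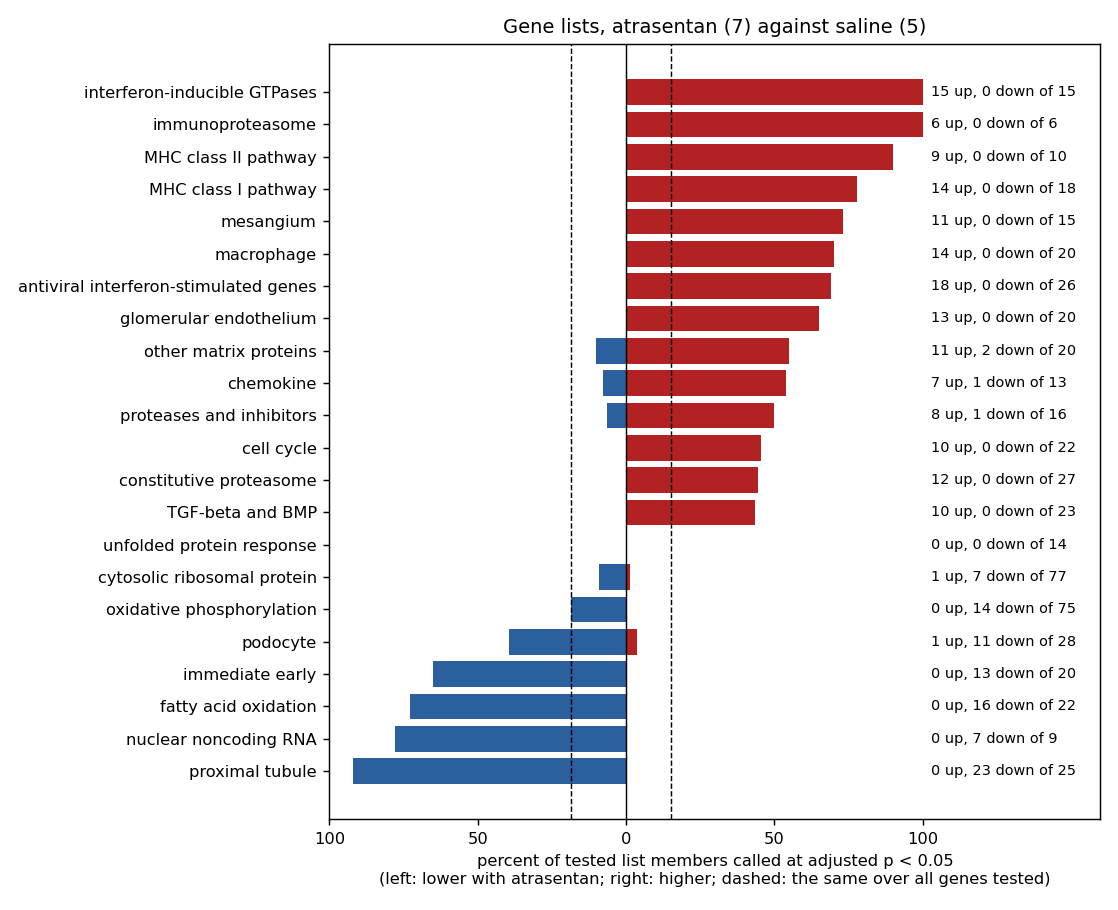
For 22 gene lists, the bars give the percentage of tested members called at an adjusted p under 0.05, to the right where higher and to the left where lower with atrasentan, with the counts at the right edge. The dashed lines give the same over all 17766 genes, 15.3% higher and 18.5% lower. Interferon-inducible GTPases, the immunoproteasome and both MHC lists reach furthest right, and proximal tubule genes furthest left.

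Most genes of antigen presentation rose with atrasentan. Cells show peptides cut by the proteasome on MHC class I, which needs B2m and the TAP transporter, and macrophages, dendritic cells and B cells show engulfed protein on MHC class II. Of 18 class I pathway genes tested 14 rose and none fell (median log2 fold change 1.16), and 11 were separated between the groups. B2m, the invariant light chain of class I, was at 1339, 1328, 667, 974 and 1148 CPM with saline and had a lowest, median and highest value of 2527, 3142 and 5436 CPM with atrasentan. It rose by 1.73 ± 0.24 (adjusted p = 0.000186), and the lowest treated library, at 2527 CPM, was well above the highest saline library, at 1339 CPM. The transporter Tap1 rose by 1.94 ± 0.37, with 405 and 325 CPM in atrasentan libraries 1 and 2 and 88.3 to 235 CPM in the other 5 treated libraries. The heavy chains H2-K1 (2622 ± 566 against 799 ± 276 CPM) and H2-D1 (5484 ± 696 against 1819 ± 552 CPM) rose by 1.71 and 1.59, with the reserve that reads shared by near-identical H2 genes were not counted. Nlrc5, the transactivator of class I genes, rose by 1.37 ± 0.51 and overlapped between the groups (adjusted p = 0.0470), and it lost its call without any one of atrasentan libraries 1, 2, 3 and 6 and saline libraries 1 to 4 (adjusted p up to 0.117). The chaperones of the loading complex that serve all secreted proteins, Calr, Pdia3 and Canx, did not pass.

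Of 10 class II pathway genes 9 rose, with a median of 1.94 and 6 separated. H2-Aa, the alpha chain of I-A, was at 70.2, 49.9, 58.5, 61.2 and 98.2 CPM with saline and at 318, 483, 762, 232, 246, 198 and 173 CPM with atrasentan, with library 3 the highest and library 7 the lowest. It rose by 2.35 ± 0.35 (adjusted p = 0.000260). H2-Eb1 rose by 2.24, H2-Ab1 by 2.12, the invariant chain Cd74 by 1.93 and Ciita, the class II transactivator, by 2.21 (adjusted p of at most 0.00214). Wild type mice were at 47.5 to 103 CPM of H2-Aa, close to the range of the saline mice.

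All 6 genes of the immunoproteasome rose. This form of the proteasome replaces the catalytic subunits in immune cells and after interferon gamma. Psmb9 rose from 40.1 ± 12.0 to 144 ± 67.2 CPM (1.85 ± 0.31), Psmb8 from 55.5 ± 11.7 to 172 ± 66.3 CPM (1.63 ± 0.25) and the activator subunit Psme1 by 0.76 ± 0.15 (adjusted p of at most 0.00151). Of 27 genes of the constitutive proteasome 12 rose by at most 0.44 and none fell, with a median of 0.24. That count was 3 to 7 without any one of atrasentan libraries 2, 3, 5 and 7 or of the saline libraries, 1 with atrasentan libraries 1, 4 and 6 alone and 18 with atrasentan libraries 2, 3, 5 and 7 alone, the subsets by reads aligned to several places, in fits added after the data had been seen.

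Interferon-inducible GTPases, which attack the vacuoles of intracellular microbes, rose in 15 of the 15 genes tested, with a median of 1.86, and 2 were separated. Treated mice differed widely among themselves. Tgtp2 was at 6.99, 7.99, 3.98, 12.4 and 21.9 CPM with saline, and at 208, 157, 129, 16.1, 17.1, 56.6 and 29.8 CPM in atrasentan libraries 1 to 7. Libraries 1 to 3 were far above the saline range, and libraries 4 and 5 inside it. Iigp1 was highest in the same 3 libraries, with 833, 495 and 433 CPM in libraries 1 to 3 and 67.0 to 218 CPM in the other 4, against 31.1 to 94.1 CPM with saline, and it rose by 2.52 ± 0.57 (adjusted p = 0.00320). Gbp2, on chromosome 3, had no overlap (51.7 to 151 CPM against 32.6 to 51.3 CPM) and rose by 1.12 ± 0.23.

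Of 26 antiviral interferon-stimulated genes 18 rose and none fell (median 0.75). Bst2, which tethers budding virus, was at 109, 150, 110, 148 and 137 CPM with saline and had a lowest, median and highest value of 177, 296 and 501 CPM with atrasentan, a rise of 1.29 ± 0.25 (adjusted p = 0.00133). Rsad2, the antiviral enzyme viperin, rose by 0.76 ± 0.21 (adjusted p = 0.0116). The antiviral count was 11 without saline library 3 and 2 without saline libraries 1 and 3, where the GTPase count was 10. In the list of interferon signalling 8 of 17 rose, among them the receptor chain Ifnar2 (0.66 ± 0.09), and Socs3 alone fell.

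The promoters of some gene lists were searched for known DNA elements. The CArG box (CC, then 6 bases of A or T, then GG) was found in 2 of 16 promoters of the immediate early list (12.5%). Over all tested genes with a promoter its share was 191 of 12222 (1.56%). The interferon-stimulated response element was searched as GAAANNGAAA on both strands in the 300 bases around each gene's start (250 before and 50 after) in the RefSeq promoters of GRCm38.p6. It was found in 9 of 10 promoters of the GTPases (90%), 11 of 18 of the antiviral genes (61.1%), 4 of 15 of the class I pathway (26.7%), 1 of 6 of the immunoproteasome and 0 of 7 of the class II pathway. Over all tested genes with a promoter in the table the share was 475 of 12222 (3.89%), over all promoters in the table it was 1131 of 32851 (3.44%), and overlapping matches counted a promoter once. Among genes called at least 2-fold higher it was 48 of 240 (20%), and among those at least 2-fold lower 42 of 1213 (3.46%). In the interferon signalling list it was 3 of 18 (16.7%), and in the constitutive proteasome list 2 of 22 (9.09%). A match is a description of the sequence, not a tested binding site. The stretches of 4 genes that were separated between the groups are shown, with the element in capitals, each on its gene's strand, at chr2:122147508-122147597 (B2m, plus strand), chr3:142620564-142620653 (Gbp2, plus), chr12:26456523-26456612 (Rsad2, minus) and chr8:71537547-71537642 (Bst2, minus). The first match begins 139 bases before the RefSeq start of B2m, 59 before that of Gbp2, 120 before that of Rsad2 and 130 before that of Bst2. GENCODE M21 starts can differ: its Gbp2 gene begins at 142620602, inside the stretch shown and before the match. For Bst2 the bases after the RefSeq start were not found near the beginning of a GENCODE transcript.
B2m: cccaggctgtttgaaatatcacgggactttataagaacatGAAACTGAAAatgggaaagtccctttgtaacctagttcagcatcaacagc
Gbp2: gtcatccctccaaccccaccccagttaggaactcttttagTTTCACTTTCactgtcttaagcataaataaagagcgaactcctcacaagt
Rsad2: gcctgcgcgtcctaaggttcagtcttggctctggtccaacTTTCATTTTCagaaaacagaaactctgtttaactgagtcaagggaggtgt
Bst2: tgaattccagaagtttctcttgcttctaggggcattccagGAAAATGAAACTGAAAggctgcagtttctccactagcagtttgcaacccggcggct
B2m and Bst2 carry the element as spelled and Gbp2 and Rsad2 carry its reverse complement. Bst2 holds 2 overlapping copies.

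Macrophage genes rose with the antigen presentation genes. Of 20 macrophage markers 14 rose and none fell (median 1.2, 9 separated). C1qa, a chain of the complement recognition protein C1q that tissue macrophages make, was at 9.40, 3.13, 5.79, 3.39 and 5.28 CPM with saline and at 29.4, 9.96, 170, 44.7, 25.1, 23.5 and 22.4 CPM with atrasentan. Every treated library was above every saline library, library 3 most and library 2 by little, and the rise was 3.11 ± 0.63 (adjusted p = 0.00154). Adgre1, which encodes F4/80, rose by 1.65 ± 0.38 (9.37 ± 6.23 against 2.99 ± 0.779 CPM), and Fcgr1, an Fc receptor, by 2.57 ± 0.57 (3.23 ± 2.22 against 0.541 ± 0.197 CPM). Mrc1, Trem2, Gpnmb, Lyz2, Itgam and Cd163 did not pass. A fit with the macrophage mean as a covariate was added after the data had been seen. In it 10 of the 18 class I genes and 3 of the 10 class II genes were called. Of the 6 immunoproteasome genes 2 were called, and of the 15 GTPases 0. The macrophage mean was 3.14 to 5.01 log2 CPM with atrasentan and 2.21 to 2.75 with saline. It separates the groups, so this fit cannot tell macrophage content from treatment.

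**Figure D4:**
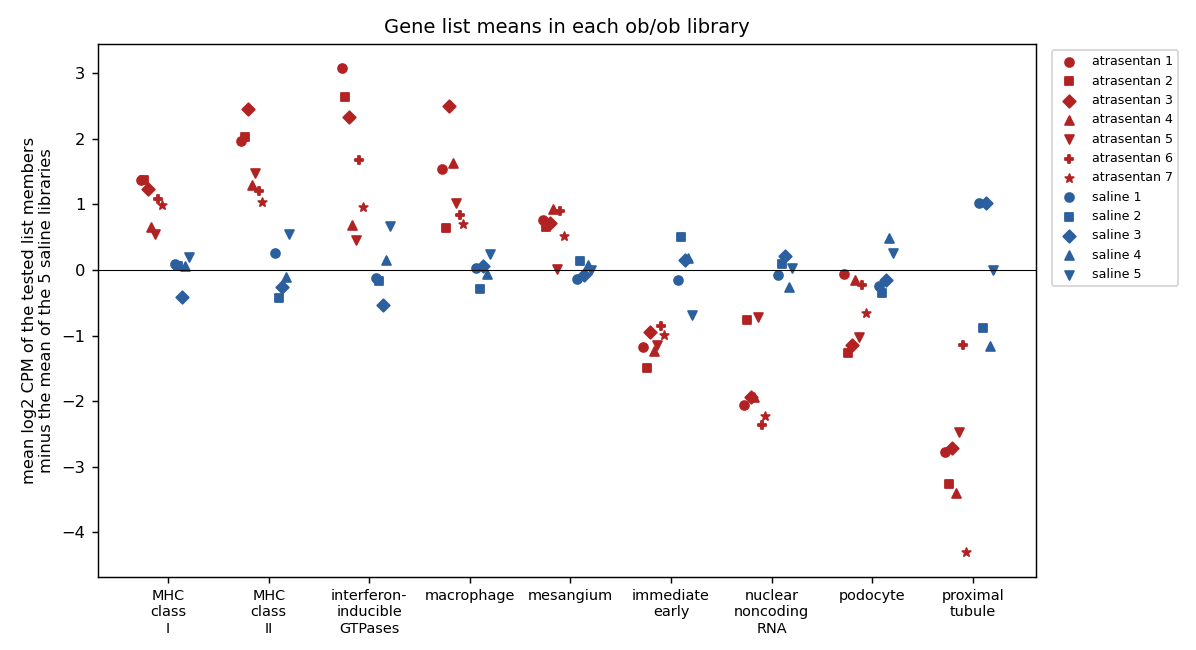
Each symbol is 1 ob/ob library and each column a gene list. The y axis is the mean log2 CPM of the tested list members minus the mean of the 5 saline libraries. In the GTPase column atrasentan libraries 1, 2 and 3 are highest, in the macrophage column library 3 stands alone, and in the podocyte column libraries 1, 4 and 6 lie in the saline range while libraries 2, 3, 5 and 7 lie below it.

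Markers of other leukocytes rose in part, and none fell. Of 8 dendritic cell markers Flt3, Xcr1, Clec9a and Itgax rose, with Itgax, which encodes CD11c, at 2.67 to 8.22 against 1.16 to 2.52 CPM. Of 19 T and NK cell markers 6 rose, among them Cd3e of the T cell receptor complex (1.06 ± 0.36, 2.15 ± 0.959 against 1.03 ± 0.252 CPM) and the kinase Lck (0.75 ± 0.17), and Cd8a and Cd8b1 did not pass. The count was 2 or 3 without atrasentan library 7, saline library 3 or saline library 4, and Cd3e lost its call without atrasentan library 7 or saline library 2, 3 or 5 (adjusted p up to 0.0832). Of 8 B and plasma cell markers 4 rose, namely Cd79b, Ighm, the light chain Igkc (1.38 ± 0.39) and Jchain (1.35 ± 0.39), the last pair highest in atrasentan library 4. Of 7 neutrophil markers Ngp alone rose and 6 did not pass.

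Blood markers moved the same way as the leukocyte lists. Of 5 red cell markers tested 4 rose, each at least 2-fold, and none fell (median 1.17). Their mean log2 CPM was 5.22 to 6.99 with atrasentan and 3.36 to 5.67 with saline, highest in atrasentan library 5 and lowest in saline libraries 1 and 3. The count was 1 or 2 without any one of atrasentan libraries 3, 4, 5 and 7 and saline libraries 1, 3, 4 and 5, and 0 without saline libraries 1 and 3. The part of blood in the rises of immune genes was not tested.

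Chemokines rose in 7 of 13 genes tested, and Cxcl12 alone fell. Ccl4, which macrophages and T cells make, was at 2.36, 3.61, 2.22, 2.02 and 2.08 CPM with saline and had a lowest, median and highest value of 7.12, 10.1 and 24.9 CPM with atrasentan, a rise of 2.31 ± 0.33 (adjusted p = 0.000211). Ccl3, its neighbour in function, rose by 2.18 ± 0.29, and the B cell chemokine Cxcl13 by 1.75 ± 0.24, from 59.4 ± 11.7 to 199 ± 70.7 CPM. Cxcl9, induced by interferon gamma, rose by 2.91 ± 0.93 with 0.0199 CPM in atrasentan library 5 and 7.43 CPM in library 2, and it lost its call without saline library 3 (adjusted p = 0.0602). Cxcl10 did not pass (1.69 ± 0.66, adjusted p = 0.0569) except without atrasentan library 4, 5, 6 or 7 (1.84 to 1.90, adjusted p between 0.02 and 0.0481). Of 10 adhesion genes 7 rose (4 without saline library 1 or 3), with Icam2 at 0.72 ± 0.15, Icam1 at 0.88 ± 0.21 and Vcam1 at 0.86 ± 0.31, and E-selectin, Sele, did not pass (-0.04 ± 0.30, adjusted p = 0.936). Vcam1 lost its call without any one of atrasentan libraries 1, 3 and 4 and saline libraries 1 to 4 (adjusted p up to 0.097).

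The complement list moved in both directions. Of 20 genes 9 rose and 4 fell. The rises were the C1q chains and 6 further genes, among them the C1 inhibitor Serping1 (226 ± 10.7 to 640 ± 231 CPM, 1.5 ± 0.23, with no overlap) and properdin, Cfp (1.80 ± 0.40). The falls included C3, the central component, which was at 142, 32.5, 110, 29.7 and 74.6 CPM with saline and had a lowest, median and highest value of 5.85, 10.7 and 26.7 CPM with atrasentan (-2.36 ± 0.41, adjusted p = 0.000642), and C2 (-2.45 ± 0.39). Both C3 and C2 were highest in saline libraries 1 and 3, and in wild type mice C3 was at 12.3 to 17.8 CPM, within the treated range.

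Immediate early genes, which are transcribed within minutes of a stimulus and also of tissue handling, fell in 13 of 20 genes and rose in none (median -0.99). For 10 of the 20 all treated libraries lay below all saline libraries. Egr1 was at 1179, 1703, 1516, 1374 and 703 CPM with saline and had a lowest, median and highest value of 89.6, 238 and 300 CPM with atrasentan, a fall of 2.63 ± 0.38 (adjusted p = 0.000216). Fos, a subunit of the AP-1 transcription factor, was at 1774, 2406, 2214, 1863 and 790 CPM with saline and at 140, 333 and 573 CPM with atrasentan (lowest, median and highest), and it fell by 2.26 ± 0.40. Fosb fell by 2.52, the antiproliferative gene Btg2 by 2.09 and the phosphatase Dusp1 by 0.95. Saline library 5 was the lowest of its group for Egr1, Fos, Fosb, Btg2 and Dusp1, and for all of these it stayed above the highest treated library. Klf2, Klf4, Klf6, Myc, Nr4a2, Atf3 and Egr2 did not pass. Wild type mice varied widely, from 348 to 1979 CPM for Fos and from 331 to 1722 CPM for Egr1. Socs3, an inhibitor of cytokine receptors that cytokines induce quickly, fell too, from 882 ± 204 to 221 ± 51.2 CPM (-2.0 ± 0.30, adjusted p = 0.000293). The immediate early count was 12 without saline libraries 1 and 3. It was 0 when the outside-gene share was a covariate and 0 with the proximal tubule covariate, where the median was -0.96. The outside-gene share separates the groups, so its fit cannot tell that share from treatment.

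Noncoding RNA was lower with atrasentan as a class. Of 2435 long noncoding genes tested 847 (34.8%) fell and 66 (2.71%) rose, with a median log2 fold change of -0.82. They include 761 loci of the annotation class TEC, whose transcripts await experimental proof, of which 364 (47.8%) fell, and without these loci 483 of 1674 (28.9%) fell and 62 (3.7%) rose (median -0.57). Of 14553 protein-coding genes 2337 (16.1%) fell and 2602 (17.9%) rose, with a median of 0.04. In the list of nuclear noncoding RNAs, long transcripts that stay at chromatin or in nuclear bodies, 7 of 9 fell and none rose (median -1.40). Neat1, the scaffold of paraspeckles, was at 416, 537, 562, 513 and 420 CPM with saline and at 141, 280, 139, 159, 173, 120 and 115 CPM with atrasentan, a fall of 1.60 ± 0.19 (adjusted p = 9.05e-05). Malat1, of the nuclear speckles, fell by 1.40 ± 0.33 from 1354 ± 227 to 511 ± 330 CPM, with atrasentan libraries 2 and 5 (996 and 958 CPM) closest to the saline libraries. Kcnq1ot1, the transcript that silences an imprinted cluster, fell by 1.31. Snhg11, on this list but annotated as protein-coding in GENCODE M21, fell by 3.79. It was at 22.1, 5.78, 30.7, 5.94 and 21.3 CPM in saline libraries 1 to 5. The library kit does not mark the strand, so reads of an antisense gene and of the gene it overlaps cannot be told apart. Both the nuclear RNAs and the share of reads outside genes were lower with atrasentan. With that share as a covariate 1 of the 9 was called, with a median of -0.28. The share was 3.17% to 5.65% with atrasentan and 5.95% to 8.17% with saline. It separates the groups, so this fit cannot tell it from treatment. Neat1 stayed called with the proximal tubule covariate (-1.79 ± 0.36, adjusted p = 0.0472).

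Calls also depended on the level of a gene. In the lowest 10% of protein-coding genes by mean CPM 3.3% rose and 15.6% fell, and in the highest 10% 43% rose and 8.79% fell. The gene lists were not compared with genes of their own level. By exonic length the share that rose was 20.8% in the shortest 10% and 10.5% in the longest 10%, and the share that fell 14.1% and 18.8%.

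Podocyte genes were lower in some treated mice and not in others. Of 28 markers 11 fell, 1 rose and 16 did not pass (median -0.53). The mean log2 CPM of the list was 7.54 to 8.20 in wild type mice, 6.72 to 7.57 with saline and 5.81 to 7.01 with atrasentan. On this mean, the fall with atrasentan went away from the wild type level. Ptpro, a receptor tyrosine phosphatase of podocytes, was at 107, 39.9, 119, 227 and 214 CPM with saline and at 94.5, 13.3, 18.5, 64.9, 29.0, 51.6 and 24.3 CPM with atrasentan, a fall of 1.74 ± 0.45 (adjusted p = 0.00761). Libraries 1, 4 and 6 reached the saline range and libraries 2 and 3 were the lowest. The scaffold Magi2 was separated: 65.8, 72.7, 79.4, 137 and 119 CPM with saline against a lowest, median and highest value of 17.7, 27.7 and 42.8 CPM, a fall of 1.74 ± 0.25 (adjusted p = 0.000221). Plce1, a phospholipase needed for podocyte maturation, fell by 1.03, Nphs1 by 0.88 and the matrix ligand nephronectin, Npnt, by 1.36. Podxl (-0.27 ± 0.17, adjusted p = 0.236) and Synpo (-0.52 ± 0.22, adjusted p = 0.0720) did not pass, and Actn4 rose (0.41 ± 0.12). Synpo passed without atrasentan library 4 or 6 (-0.61 and -0.64, adjusted p = 0.0467 and 0.0262). Atrasentan libraries 2, 3, 5 and 7 had podocyte means of 5.81 to 6.42 log2 CPM, below the saline range. Libraries 1, 4 and 6, at 7.01, 6.93 and 6.85, lay inside it. The libraries below it are those with more reads that aligned to several places, and the part of this in the falls was not tested.

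Endothelial and mesangial genes were higher. Of 20 markers of glomerular endothelium 13 rose and none fell (median 0.42), with Plvap, of the diaphragms of fenestrae, at 0.77 ± 0.12 and the glomerular marker Ehd3 at 0.48 ± 0.12. The receptor Kdr did not pass (0.37 ± 0.15, adjusted p = 0.0681) except without atrasentan library 2 (0.43, adjusted p = 0.0412). The endothelial count was 8 without saline library 1, 3 or 5 and 2 without saline libraries 1 and 3. Of 15 mesangial markers 11 rose (median 0.72), Agtr1a included. Serpine2, a protease inhibitor abundant in mesangium, was at 2780, 3668, 3133, 3969 and 3593 CPM with saline and had a lowest, median and highest value of 5071, 6216 and 8278 CPM with atrasentan, a rise of 0.94 ± 0.15 (adjusted p = 0.000365). Gata3 rose by 0.72, desmin, Des, by 0.76 and the PDGF receptor Pdgfrb by 0.79. Atrasentan library 5 was the lowest treated library for each of these 4. Pdgfrb lost its call without atrasentan library 4 or saline library 1 or 5 (adjusted p up to 0.0697). The mesangial count was 5 to 7 without atrasentan library 3 or 4 or saline library 1, 3 or 5, and 5 without saline libraries 1 and 3.

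Growth factors of the capillary changed in both directions. Vegfa, which podocytes make for the endothelium, was at 467, 461, 528, 847 and 562 CPM with saline and had a lowest, median and highest value of 212, 300 and 437 CPM with atrasentan, a fall of 0.89 ± 0.20 (adjusted p = 0.00288). Vegfc rose by 0.94 ± 0.18 and Pgf by 0.71 ± 0.17. Of 18 genes of the VEGF and angiopoietin list 6 rose and 2 fell, the other fall being Angpt1 (-1.27), the ligand that keeps endothelium quiescent. Of 23 TGF-beta and BMP genes 10 rose and none fell (median 0.37), and of 14 Notch genes Jag1 and Rbpj rose (6 rose without saline library 2). Among smooth muscle genes Myl9, Smtn and Tpm2 rose, 3 of 9.

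Of the genes on the collagen, matrix protein and protease lists Col8a1 had the lowest adjusted p. Col8a1, a short-chain collagen of vessel walls and activated mesangial cells, was at 65.0, 85.6, 92.1, 93.0 and 83.9 CPM with saline and at 344, 287, 361, 331, 164, 274 and 267 CPM with atrasentan. The lowest treated library, 5, was far above the highest saline library, and wild type mice were at 37.3 to 66.4 CPM. It rose by 1.79 ± 0.19 (adjusted p = 6.44e-05), and by 1.57 ± 0.31 with the proximal tubule covariate (adjusted p = 0.0472). Of 24 collagen genes 6 rose and 5 fell. The basement membrane chains that podocytes make, Col4a3, Col4a4 and Col4a5, fell by 1.45, 1.07 and 1.55. Their means were 450, 146 and 54.5 CPM in wild type mice and 297, 103 and 40.2 CPM with saline. Col4a2, of the form that mesangium and endothelium make, rose by 0.72 and Col4a1 did not pass (0.54 ± 0.22, adjusted p = 0.0636). Without atrasentan library 5 Col4a1 passed (0.62, adjusted p = 0.0302), and Col4a2 lost its call without saline library 1 or 5 (adjusted p = 0.0699 and 0.0625). Of 20 other matrix proteins 11 rose and 2 fell, with biglycan, Bgn, at 0.96 ± 0.15 and thrombospondin 1, Thbs1, at 1.10 ± 0.35 (adjusted p = 0.0597 without saline library 1). Of 16 proteases and inhibitors 8 rose, 4 or 5 without atrasentan library 7 or saline library 1, 3, 4 or 5, and 1 fell. The membrane collagenase Mmp14 rose by 0.88, Mmp2, the gelatinase it activates, by 0.88 and the aggrecanase Adamts5 by 0.83, and the inhibitor Timp3 did not pass (0.22 ± 0.17, adjusted p = 0.330).

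**Figure D5:**
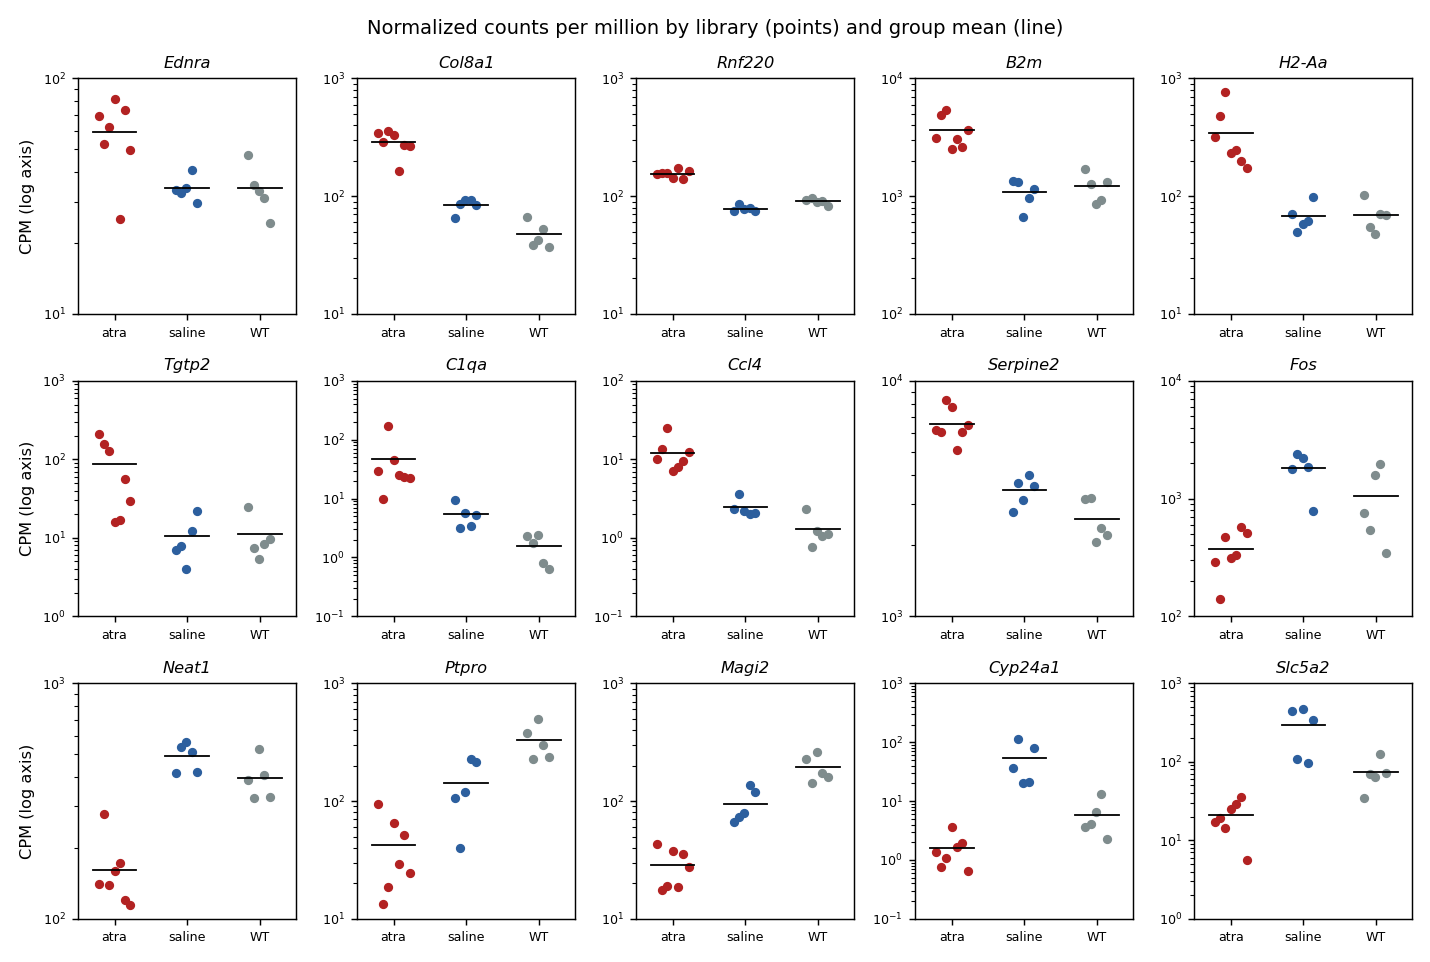
Each point is a library and each line a group mean, in CPM on log axes that differ between panels, for 15 genes in atrasentan (red), saline (blue) and wild type (grey) mice. Col8a1, Rnf220, B2m, Serpine2 and Neat1 show no overlap between the treated and saline libraries, and in the Ednra panel 1 treated library at 25.3 CPM lies below the saline range.

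Proximal tubule genes had the lowest median of the 53 lists, at -2.97. Of 25 genes 23 fell and none rose, and 12 were separated. Slc5a2, the glucose carrier SGLT2, was at 441, 108, 467, 97.9 and 342 CPM with saline and had a lowest, median and highest value of 5.67, 19.4 and 36.1 CPM with atrasentan, a fall of 3.79 ± 0.46 (adjusted p = 0.000107). The phosphate carrier Slc34a1 fell by 3.41 and the conjugating enzyme Keg1 by 3.43. The saline libraries themselves differed, with 4091 and 4180 CPM of Slc34a1 in libraries 1 and 3 and 893 to 2418 CPM in the other 3. In atrasentan library 6, the treated library with the most proximal tubule RNA, it was at 679 CPM, and in library 7 at 54.4 CPM. The loop of Henle list had 4 falls in 12 genes, Slc12a1, Cldn10 and Ptger3 included. Of 10 distal tubule genes Calb1, Wnk4, S100g and Trpv5 fell, and of 14 collecting duct genes Atp6v0d2, Slc4a1 and Foxi1 fell, and no gene of the 3 lists rose. Of 10 genes of the parietal epithelium of the capsule 5 fell, with Pax2 separated (-2.68 ± 0.52), and Cp rose. Without atrasentan library 6 the loop and distal counts were 8 each, without atrasentan library 5 the collecting duct count was 6, and without saline library 1 or 3 the parietal count was 2 or 3. Of 22 genes of fatty acid oxidation, the main fuel of the proximal tubule, 16 fell and none rose (median -0.82). They include the regulator Ppara (-3.12 ± 0.47) and its targets Cyp4a10 (-3.26 ± 0.72) and Cyp4a14 (-3.18 ± 0.78). Among injury genes of the tubule, Spp1, osteopontin, fell by 2.06 ± 0.49, Vim, vimentin, rose by 0.86 ± 0.15, and Havcr1 (0.237 ± 0.253 against 0.727 ± 0.875 CPM, adjusted p = 0.217) and Lcn2 (adjusted p = 0.253) did not pass.

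Other lists moved in few genes or in both directions. None of 14 genes of the unfolded protein response was called in edgeR, DESeq2 or limma-voom, and 1, Chac1, had an unadjusted p under 0.05 in edgeR. Of 16 clock genes 1 fell, Npas2 (-2.56 ± 0.86, adjusted p = 0.0300), which lost its call without any one of 8 libraries, the other 4 being atrasentan 3 and 6 and saline 2 and 4 (adjusted p up to 0.0637). Of 17 NRF2 targets 4 rose and 5 fell, with Hmox1, heme oxygenase 1, higher (0.47) and the catalase Cat lower (-1.11). Of 13 hypoxia genes Epas1 rose and Ndrg1, Bnip3 and Egln3 fell, and of 17 genes of cholesterol and lipid synthesis 2 rose and Sqle, Cyp51 and Insig1 fell. Of 75 genes of oxidative phosphorylation 14 fell, close to the background share, with 6 without saline library 1 or 3 and 25 or 24 without saline library 2 or 4. Of 8 heat shock genes Hspa1b rose (1.90 ± 0.72, adjusted p = 0.0488), with atrasentan libraries at 26.6 to 259 CPM, and lost its call without any one of 8 libraries (adjusted p up to 0.106). Hspd1 fell. Cell cycle genes rose in 10 of 22 (median 0.66), and in 6 without atrasentan library 3 or saline library 1, 3 or 5. Birc5, survivin, was at 4.83 ± 3.74 against 1.64 ± 1.03 CPM with 13.1 CPM in atrasentan library 3, and lost its call in the same 4 fits (adjusted p up to 0.0687). The replication helicase subunit Mcm3 rose by 0.61 ± 0.15 without overlap. Of 19 lysosomal genes 5 rose and 4 fell. The largest rises were Ctss (1.74 ± 0.31), the protease that trims the invariant chain for class II, and Grn, progranulin (0.55 ± 0.09). Of 77 cytosolic ribosomal protein genes 1 rose and 7 fell. This count was split by library: 18 rose and 2 fell with atrasentan libraries 2, 3, 5 and 7 alone, and 0 rose and 12 fell with libraries 1, 4 and 6 alone. Gapdh, which has many pseudogenes, was at only 5.25 to 10.9 CPM with saline. Reads that aligned to several places were not counted, so its called fall (-1.12 ± 0.17) is uncertain.

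The tightest difference of the comparison belonged to Rnf220, a ubiquitin ligase, chosen here after its values were seen because it had the lowest adjusted p. It was at 75.0, 85.1, 77.4, 78.6 and 75.4 CPM with saline and at 155, 157, 157, 143, 172, 140 and 163 CPM with atrasentan. The 2 groups lay far apart beside their own spread, with means of 155 ± 11.1 and 78.3 ± 4.09 CPM (SD), and wild type mice were at 81.8 to 96.0 CPM. It rose by 0.99 ± 0.07 (adjusted p = 9.07e-07), and by 0.89 ± 0.13 with the proximal tubule covariate (adjusted p = 0.0123).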

How the data were processed

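Poly(A)-selected RNA of glomeruli-enriched cortex was sequenced in 17 BTBR mice, and 7 ob/ob libraries with atrasentan were compared with 5 ob/ob libraries with saline. The authors deposited raw read counts for 53379 genes and, for 17338 genes, values on a log2 scale (transform not given in the sources used here). The build GRCm38 and the tools STAR, HTSeq, limma, edgeR and DESeq2 are listed in the submitters' processing notes, with no roles. Lines of the count table that name no gene were left out of the tests, and their shares are given below. How the counting treated strand, and with which annotation, was not given in the sources used here. Symbols and positions came from GENCODE M21, which matched 53274 gene IDs (99.8%).

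The deposited counts were tested with edgeR 4.0.16 (R 4.3.3) by its quasi-likelihood F test, after filterByExpr by group and TMM scaling (factors 0.892 to 1.15), with all 17 libraries in 1 fit (biological coefficient of variation 0.312). This left 17766 genes, with Benjamini-Hochberg adjustment over all of them and calls at an adjusted p under 0.05. Errors of log2 fold changes are standard errors derived from F, and CPM use the TMM-scaled library sizes. Values with ± are mean ± SD in CPM (n = 7 and 5) or log2 fold change ± SE. List means use log2 CPM with a prior count of 2. Groups are called separated, or without overlap, where all 7 libraries of one lie on the same side of all 5 of the other.

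In all, 53 gene lists (1009 symbols, 990 distinct, 1007 entries found) and the tests were chosen with earlier results of these data known, so lists get counts and medians and no p. Named genes are the endothelin genes and Clu, the 10 largest separated rises and falls among called protein-coding genes with a mean of at least 1 CPM in the higher group, and up to 4 separated called genes per list and direction. Other list members are named with their values known. Some genes of this rule are not reported here. Members of a list that did not pass the low-count filter are not in its count tested. Alternatives were limma-voom and limma-trend (limma 3.58.1), DESeq2 1.42.0, other scalings and filters, each library left out and 3 covariates. Replicate numbers follow the order of the deposited samples and only name a library. Libraries of a group differed by more than sampling noise in all 41 pairs (chi-square per degree of freedom of at least 24).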

Additional observations from a re-analysis of the deposited data

Results flagged for a closer look

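A library was set apart from the rest of its group, by Dixon's criterion on log2 CPM for named genes and on the value itself for library measures, in 15 of 280 groups of values (5.36%), and chance flags about 1 in 20. Atrasentan library 5 gave 5 of these. It was lowest of the 7 treated libraries for Ednra (25.3 CPM, next 49.6), Des (426 CPM, next 628), Col8a1 (164 CPM, next 267) and Mmp14 (206 CPM, next 298), and it had the most gene reads (52528747, next 41855297). Atrasentan library 3 was highest for C1qc (218 CPM, next 49.0), Cfp (42.6 CPM, next 14.2) and Saa3 (4.90 CPM, next 0.826). Atrasentan library 4 was lowest for H2-D1 (4074 CPM, next 5187).

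Of the saline libraries, library 2 was highest for Ece1 (761 CPM, next 559), Ccl4 (3.61 CPM, next 2.36) and Plvap (392 CPM, next 325) and lowest for Mme (23.3 CPM, next 46.0). Saline library 1 was lowest for Col8a1 (65.0 CPM, next 83.9), and saline library 5 was lowest for Fos (790 CPM, next 1774).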

How the results depend on the processing

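No paired analysis was possible because the labels number no replicates and give 1 batch for all libraries. The counts of called genes (6001 in all, 2713 higher, 3288 lower, 2570 at least 2-fold changed) stayed within 1.5 times under DESeq2, limma-voom, both other scalings, both other filters, the 12 ob/ob libraries alone and either subset of atrasentan libraries, and with each library left out (4361 to 6338, 1896 to 2842, 2465 to 3496 and 2087 to 2765). The counts fell without saline libraries 1 and 3 (2577, 1015, 1562 and 1397), with the proximal tubule marker mean as a covariate (38, 11, 27 and 30), with the outside-gene share as a covariate (1931, 564, 1367 and 1474) and with the macrophage marker mean as a covariate, added after the data had been seen (1413, 608, 805 and 829). A minimum fold of 1.5 in glmTreat gave 1560, 187 and 1373, by its stricter null, and limma-trend on the deposited log2 table gave 938 genes at least 2-fold changed. The cause of the other losses was not tested.

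Of 155 named genes that were called, 145 lost the call and 6 changed sign with the proximal tubule covariate, namely Agt (1.35), Igkc (-0.03), Jchain (-0.19), Spp1 (0.84), Cyp4a10 (0.56) and Cyp4a14 (0.67), none of them called there. With the outside-gene share as a covariate 92 lost the call and Hspa1b changed sign (-0.62), and with the macrophage covariate 91 lost it and Adgre1, itself in that mean, changed sign (-0.07). Without saline libraries 1 and 3, 39 lost the call, and 14 lost it without some 1 library. Of all calls 45.2% were higher, and 28.9%, 29.2% and 12% were with the proximal tubule covariate, the outside-gene covariate and glmTreat. No setting reversed a call that passed in both fits.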

Other observations

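The comparison has 7 and 5 animals and tissue whose proximal tubule content nearly separates the groups, so a difference cannot be assigned to atrasentan or to tissue composition by these counts. With 7 against 5 libraries the smallest two-sided exact p is 0.00126, which limits library measures only. Genes with near-identical copies, among them the H2 heavy chains, Serpina3f, Gbp8, Tgtp1 and Tgtp2, Gapdh and ribosomal protein genes, lost reads that aligned to several places, and their levels are lower bounds.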
